A study of Mus musculus with 19 samples.

Results

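MHC class II molecules display peptides from proteins taken up by a cell to CD4+ T cells. The 10 genes described here, of 40413 in the count table, were taken by symbol: the chain genes H2-Aa, H2-Ab1 and H2-Eb1, the peptide-editing genes H2-DMa, H2-DMb1, H2-DMb2, H2-Oa and H2-Ob, the invariant chain gene Cd74 and the transactivator gene Ciita. They were followed in kidney polyadenylated RNA of 18 adult mice, 1 library per mouse. Vehicle went to 4 BPN/3J mice, which have normal blood pressure, and to 5 BPH/2J mice, which have high blood pressure. Cmpd17b, a small-molecule agonist of formyl peptide receptors, went to 5 BPN/3J and 4 BPH/2J mice by intraperitoneal injection at 50 mg/kg/day for 28 days. A further library, labelled BPH/2J Cmpd17b replicate 1, was left out: it held Myh6, a heart muscle myosin gene, at 14200 CPM (a count scaled by the total of its library) and the proximal tubule transporter gene Slc34a1 at 5.94 CPM. BPH/2J and BPN/3J are separate inbred strains, so strain background and blood pressure cannot be told apart, and no label gives the H2 haplotype of either. Library numbers run in blocks by group, so an effect of library order cannot be told apart from the groups.

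An alpha and a beta chain form each class II molecule: H2-Aa pairs with H2-Ab1, and H2-Ea with H2-Eb1. The invariant chain, encoded by Cd74, holds the new molecule together and blocks its groove until it reaches the endosome. There H2-DM, built from H2-DMa and an H2-DMb chain, helps the last invariant chain fragment to be exchanged for a peptide, and H2-DO, built from H2-Oa and H2-Ob, restrains H2-DM. Ciita switches the class II genes on by joining the factors that sit on a shared promoter module with an X box and a Y box. In the kidney, the class II genes are expressed mainly by dendritic cells, macrophages and B cells, and tubule cells can turn them on in inflammation. In bulk tissue RNA, fewer class II cells and less RNA per cell cannot be told apart.

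The promoter module with an X box and a Y box is shown first, as background. Its part in the levels was not tested. RefSeq start-site windows of 300 bases (GRCm38.p6, an earlier build than that of the counts) were matched for 7 of the 10 genes, 8 windows in all. H2-Ab1, Ciita and Cd74 had no matching window. The Y box core was searched as GATTGG. The X box core was searched as the 5 letters GNAAC, on the same strand and 10 to 30 bases upstream of the Y box core. Both strands were searched, and the pattern was chosen after the windows had been read. The pair lay on the gene's own strand in 5 of the 7 genes, whose 150 bases before the start site are printed below with both cores in capitals. The H2-Aa stretch is chr17:34287824-34287973 (minus strand). The other 4 are on the plus strand: H2-Eb1 at chr17:34305717-34305866, H2-DMb1 at chr17:34153041-34153190, H2-Oa at chr17:34092229-34092378 and H2-Ob at chr17:34238755-34238904.
H2-Aa: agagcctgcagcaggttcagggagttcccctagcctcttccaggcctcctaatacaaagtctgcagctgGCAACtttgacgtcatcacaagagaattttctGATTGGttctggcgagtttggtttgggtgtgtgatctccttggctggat
H2-Eb1: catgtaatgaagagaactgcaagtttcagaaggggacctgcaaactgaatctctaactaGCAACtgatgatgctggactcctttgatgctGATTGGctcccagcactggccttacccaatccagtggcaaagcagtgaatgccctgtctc
H2-DMb1: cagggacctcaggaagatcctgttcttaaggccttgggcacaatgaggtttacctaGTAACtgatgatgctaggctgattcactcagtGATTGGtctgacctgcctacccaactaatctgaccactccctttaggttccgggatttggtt
H2-Oa: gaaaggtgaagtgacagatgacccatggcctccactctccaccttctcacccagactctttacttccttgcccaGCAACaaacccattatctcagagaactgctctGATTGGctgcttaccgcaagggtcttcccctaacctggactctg
H2-Ob: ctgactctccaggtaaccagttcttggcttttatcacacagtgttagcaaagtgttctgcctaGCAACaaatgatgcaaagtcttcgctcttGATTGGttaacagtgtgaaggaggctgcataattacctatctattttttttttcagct
In these stretches the cores stood 27 bases apart in H2-Aa, H2-DMb1 and H2-Oa, 26 in H2-Eb1 and 24 in H2-Ob, and the X box began 76 to 94 bases before the start site. Of 32851 windows of this length, 1.2% held the pair, 16.1% the Y box core and 84.8% the X box core. The Y box core was found in all 7 genes with a window, H2-DMa and H2-DMb2 included. No binding was measured, so a match describes these letters and nothing more.

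Total counts in the 18 libraries ran from 21400111 to 40998650. Kidney markers were present in every library, with Slc34a1 at 2082 to 4810 CPM, Umod at 792 to 2652 CPM, Aqp2 at 113 to 479 CPM and Nphs1 at 4.01 to 20.4 CPM. Myh6 stood at 26.6 to 33.9 CPM in the treated BPH/2J libraries and at most 1.65 CPM elsewhere. Its part in the class II values was not tested, and no class II gene was among the 241 genes enriched in the library left out. That library, on its own total, held Cd74 at 16 CPM, H2-Aa at 8.27 CPM, H2-Ab1 at 5.27 CPM and H2-DMa at 2.55 CPM.

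Levels are in CPM after TMM scaling, which corrects for differences in library composition. Per kilobase of the longest annotated transcript, Cd74 was the most abundant (median over 18 libraries 62.4 CPM per kb, range 24.7 to 132), followed by H2-Ab1 (43.6, range 9.96 to 110), H2-Aa (30.1, range 11.9 to 68.1) and H2-Eb1 (19.1, range 6.87 to 37.6). The peptide editor came lower, with H2-DMa at 3.09, H2-DMb1 at 2.13 and H2-DMb2 at 1.23 CPM per kb. Ciita stood at 0.442, H2-Ob at 0.194 and H2-Oa at 0.165 CPM per kb. The ranges of neighbours in this order overlapped, except that H2-DMa (0.981 to 5.49 CPM per kb) lay wholly below H2-Eb1. H2-Ea, the partner of H2-Eb1, is listed as a transcribed pseudogene in RefSeq, yet it had reads in both strains at a median of 33.8 CPM per kb, between H2-Ab1 and H2-Aa.

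**Figure D1:**
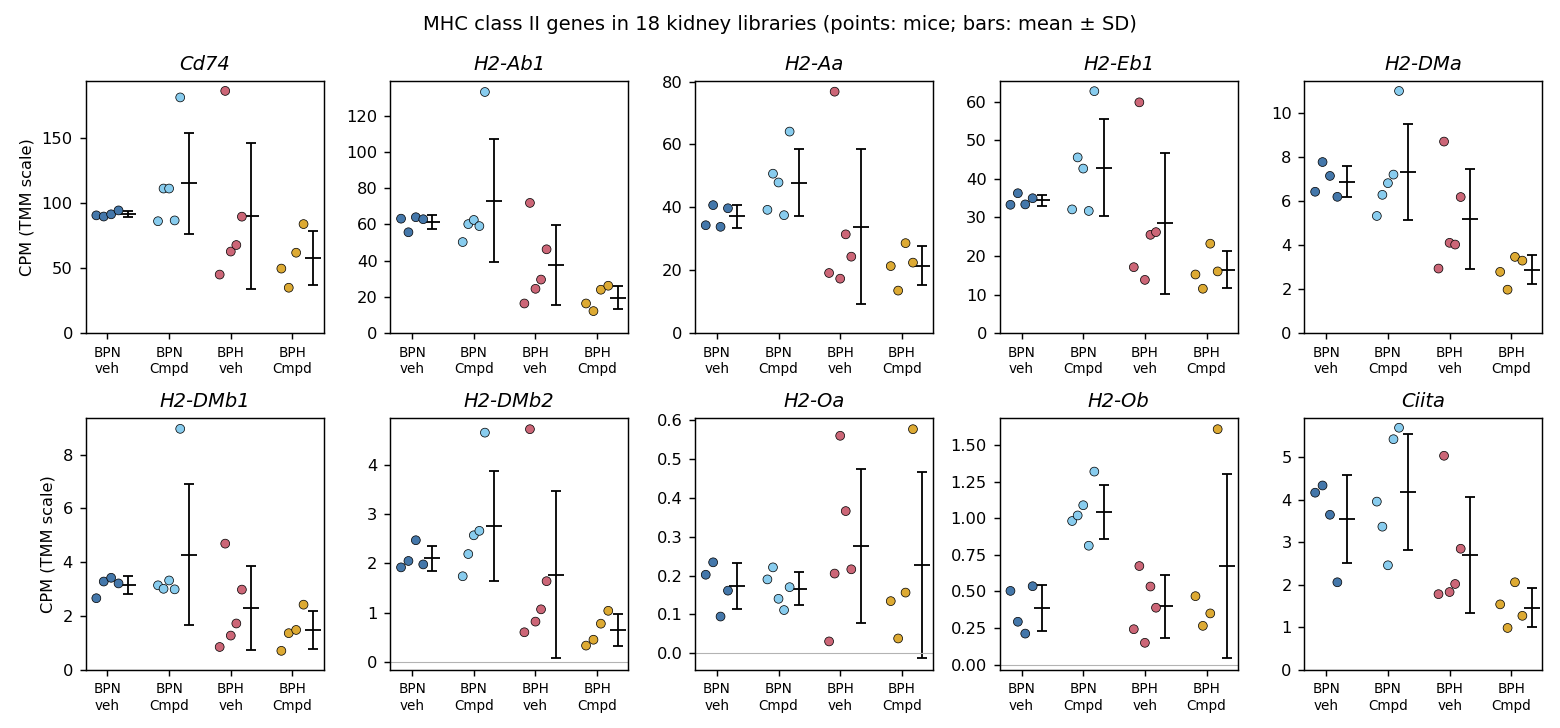
Level of each of the 10 class II genes (y axis, CPM on the TMM scale, 1 axis per gene) in each mouse of 4 groups (BPN, BPN/3J; BPH, BPH/2J; veh, vehicle; Cmpd, Cmpd17b). Points are mice and bars are mean ± SD; 1 vehicle BPH/2J mouse and 1 treated BPN/3J mouse sit far above their groups in most panels, as with 186 and 181 CPM of Cd74.

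Among treated mice, BPH/2J kidneys held less class II RNA than BPN/3J kidneys. Of the 9 genes with enough counts to test, 7 fell at an adjusted p under 0.05 (edgeR quasi-likelihood test, adjusted by Benjamini-Hochberg over all 16421 genes tested), against 4.65% of all genes called lower. The median log2 fold change of the 9 genes was -1.38, while that of all genes was 0.01. In 8 of the 9 genes no treated BPH/2J mouse reached the lowest treated BPN/3J mouse, against 6.37% of all genes. Under vehicle the same strain difference had a median of -0.27 (all genes 0.04), 0 of the 9 genes were called lower against 4.94% of all genes, and 0 had groups apart and lower against 6.69%. None of the 9 had an unadjusted p under 0.05 there, against 23.9% of all genes. DESeq2 and limma-voom also called 0, against 1072 of 19619 and 899 of 16421 genes called lower. The vehicle value rests in part on 1 mouse, BPH/2J vehicle replicate 2, which had the most class II RNA of its group. Without it the median under vehicle was -0.74 and all 9 genes were below 0. H2-Ab1 was then called (-1.08, adjusted p 0.0438, edgeR), against 704 of 16310 genes called lower. This mouse is in neither treated group, so leaving it out is no check of the median under Cmpd17b. Averaged over both arms, 6 of the 9 genes fell against 10.4% of all genes, with a median of -0.88 (all genes 0.03). The difference between the arms is the interaction given further on, and it was not called for any class II gene.

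**Figure D2:**
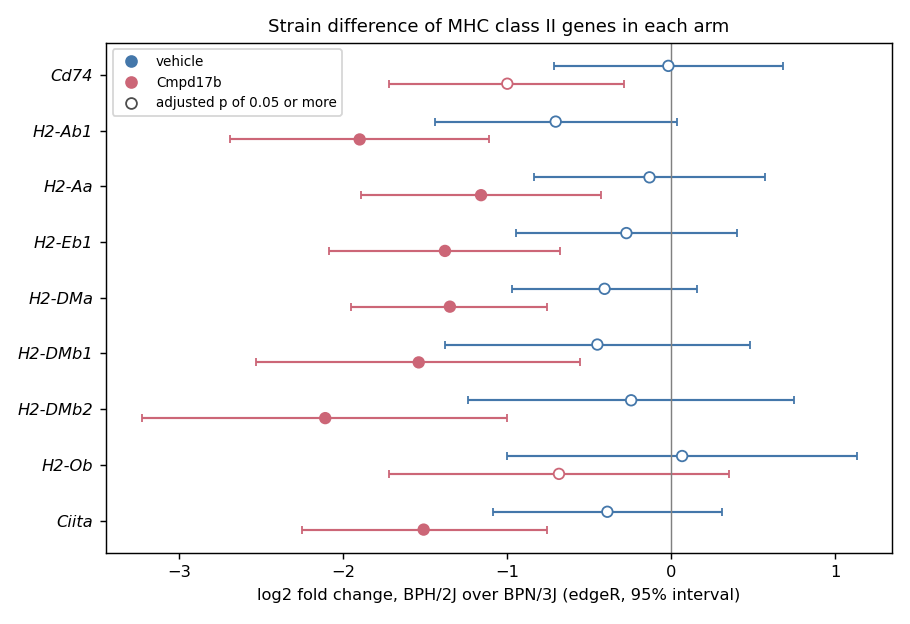
Strain difference of the 9 tested class II genes (x axis, log2 fold change of BPH/2J over BPN/3J with its 95% interval) under vehicle and under Cmpd17b. Filled points have an adjusted p under 0.05: 7 genes under Cmpd17b and 0 under vehicle.

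H2-Ab1, the beta chain of the A molecule, showed the smallest adjusted p. Its level was 63.1, 55.6, 63.9 and 62.8 CPM in vehicle BPN/3J mice and 50.2, 60.1, 62.4, 59 and 133 CPM in treated BPN/3J mice. In vehicle BPH/2J mice it was 16.3, 71.8, 24.4, 29.5 and 46.2 CPM, and in treated BPH/2J mice 16.3, 12.1, 23.9 and 26.1 CPM. All treated BPH/2J mice lay below every BPN/3J mouse, as did all vehicle BPH/2J mice but 1. The group means were 61.4 ± 3.87 (SD, n = 4), 73 ± 33.9 (n = 5), 37.6 ± 22 (n = 5) and 19.6 ± 6.54 CPM (n = 4) in the same order. In edgeR, H2-Ab1 was lower in BPH/2J by a log2 fold change of -1.90 (SE 0.376, adjusted p 0.00216) under Cmpd17b and of -0.71 (SE 0.352, adjusted p 0.232) under vehicle. Averaged over arms it was -1.30 (SE 0.255, adjusted p 0.00105).

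H2-Aa is the alpha chain that pairs with H2-Ab1. It stood at 34.3, 40.7, 33.8 and 39.7 CPM in vehicle and at 39.2, 50.7, 47.9, 37.5 and 64.1 CPM in treated BPN/3J mice. The vehicle BPH/2J mice had 19.1, 76.8, 17.3, 31.4 and 24.3 CPM, and the treated BPH/2J mice had 21.3, 13.5, 28.6 and 22.4 CPM. Under vehicle the strains overlapped only through 1 BPH/2J mouse, which had the highest H2-Aa level of all 18 mice; the treated strains did not overlap. H2-Aa fell by 1.16 on the log2 scale under Cmpd17b (SE 0.348, adjusted p 0.0392, edgeR). Under vehicle the value was -0.13 (SE 0.336, adjusted p 0.837, edgeR), and averaged over arms it was -0.65 (SE 0.24, adjusted p 0.0589, edgeR). The call under Cmpd17b was lost in 6 of the 18 fits that left out 1 library, those without treated BPH/2J replicate 2, 3 or 5 or treated BPN/3J replicate 2, 3 or 5, at -1.18 to -0.99 (adjusted p 0.0708 to 0.115, edgeR). The average over arms was called without treated BPH/2J replicate 4 (-0.74, adjusted p 0.0417, edgeR) and without vehicle BPH/2J replicate 2 (-0.92, adjusted p 0.000287, edgeR).

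H2-Eb1 encodes the beta chain of the E molecule. The vehicle BPN/3J mice had 33.3, 36.3, 33.4 and 35 CPM and the treated BPN/3J mice 32.1, 45.6, 42.7, 31.7 and 62.8 CPM. The vehicle BPH/2J mice had 17.1, 59.9, 13.8, 25.5 and 26.2 CPM, and treated BPH/2J mice had 15.2, 11.5, 23.2 and 16 CPM. The pattern was that of H2-Aa, with 1 high vehicle BPH/2J mouse and the treated strains apart. Its edgeR log2 fold change was -1.38 under Cmpd17b (SE 0.337, adjusted p 0.0107), -0.27 under vehicle (SE 0.322, adjusted p 0.638) and -0.83 averaged over arms (SE 0.231, adjusted p 0.0141). H2-Ea, its partner and not among the 10 genes, gave -1.42 under Cmpd17b (adjusted p 0.014, edgeR), -0.37 under vehicle (adjusted p 0.548) and -0.89 averaged over arms (adjusted p 0.0134).

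Cd74 encodes the invariant chain, which also has roles outside class II assembly. Its level was 90.4, 89.5, 91.2 and 94.2 CPM in vehicle BPN/3J mice, a range far tighter than in the other groups. Treated BPN/3J mice had 85.9, 111, 111, 86.5 and 181 CPM. Vehicle BPH/2J mice had 44.9, 186, 62.6, 67.6 and 89.4 CPM, and treated BPH/2J mice had 49.5, 34.8, 61.7 and 83.7 CPM. The highest treated BPH/2J mouse came close to the lowest treated BPN/3J mouse, but the groups did not overlap. Cd74 did not pass the test: its edgeR log2 fold change between strains was -1.0 under Cmpd17b (SE 0.34, adjusted p 0.0702), -0.02 under vehicle (SE 0.331, adjusted p 0.979) and -0.51 averaged over arms (SE 0.235, adjusted p 0.125). Under Cmpd17b it was called without vehicle BPH/2J replicate 1 (adjusted p 0.0459) or 2 (adjusted p 0.0147), or without treated BPH/2J replicate 5 (-1.24, adjusted p 0.0405), in edgeR. The average over arms was called without vehicle BPH/2J replicate 2 (-0.73, adjusted p 0.0072, edgeR).

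H2-DMa encodes the alpha chain of H2-DM. It was at 6.42, 7.77, 7.14 and 6.19 CPM in vehicle and at 5.32, 6.28, 6.81, 7.2 and 11 CPM in treated BPN/3J mice. Among BPH/2J mice it was at 2.93, 8.7, 4.1, 4.02 and 6.18 CPM under vehicle and at 2.78, 1.97, 3.46 and 3.29 CPM under Cmpd17b. All treated BPH/2J mice lay below every BPN/3J mouse. In edgeR, H2-DMa differed by -1.35 under Cmpd17b (SE 0.284, adjusted p 0.00368), -0.41 under vehicle (SE 0.268, adjusted p 0.379) and -0.88 averaged over arms (SE 0.194, adjusted p 0.00284), all on the log2 scale.

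H2-DMb1 and H2-DMb2 are close copies that encode the beta chain of H2-DM, so reads may have been split between them in counting. H2-DMb1 stood at 2.66, 3.28, 3.42 and 3.21 CPM in vehicle BPN/3J, 3.14, 3.01, 3.32, 2.99 and 8.96 CPM in treated BPN/3J, 0.846, 4.69, 1.27, 1.72 and 2.98 CPM in vehicle BPH/2J and 0.703, 1.36, 1.48 and 2.42 CPM in treated BPH/2J mice. H2-DMb2 stood at 1.92, 2.05, 2.47 and 1.98 CPM in vehicle BPN/3J, 1.74, 2.19, 2.57, 2.66 and 4.65 CPM in treated BPN/3J, 0.605, 4.72, 0.821, 1.07 and 1.64 CPM in vehicle BPH/2J and 0.335, 0.454, 0.779 and 1.04 CPM in treated BPH/2J mice. Both genes kept the treated strains apart, and in both a single vehicle BPH/2J mouse was above all vehicle BPN/3J mice. H2-DMb2 counts in treated BPH/2J mice were only 10 to 20. Under Cmpd17b, H2-DMb2 had the lowest log2 fold change of the 9 genes at -2.11 (SE 0.53, adjusted p 0.0132, edgeR), and H2-DMb1 had -1.54 (SE 0.472, adjusted p 0.043, edgeR). The H2-DMb1 call was lost in 10 of the 18 fits that left out 1 library, those without treated BPH/2J replicate 2, 3 or 4, treated BPN/3J replicate 2, 3 or 5 or any of the 4 vehicle BPN/3J libraries, at -1.65 to -1.09 (adjusted p 0.0501 to 0.118, edgeR). Averaged over arms, H2-DMb2 had -1.18 (SE 0.352, adjusted p 0.0209, edgeR) and H2-DMb1 -1.0 (SE 0.321, adjusted p 0.0308, edgeR), the latter lost in 7 of the 18 fits, without treated BPH/2J replicate 2 or 3, vehicle BPH/2J replicate 3 or 4, treated BPN/3J replicate 5 or vehicle BPN/3J replicate 2 or 3 (adjusted p 0.0509 to 0.0583, edgeR). Under vehicle the edgeR values were -0.25 (adjusted p 0.781) for H2-DMb2 and -0.45 (adjusted p 0.567) for H2-DMb1. With both copies summed to 1 gene, the strain difference under Cmpd17b was -1.74 (SE 0.479, adjusted p 0.0242, edgeR) and averaged over arms -1.05 (SE 0.324, adjusted p 0.0245, edgeR).

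Ciita, the transactivator gene, had the same pattern as most of the chain genes. It was at 4.17, 4.34, 3.65 and 2.06 CPM in vehicle and 3.96, 3.37, 2.46, 5.43 and 5.7 CPM in treated BPN/3J mice. BPH/2J mice had 1.78, 5.04, 1.83, 2.02 and 2.85 CPM under vehicle and 1.54, 0.984, 2.06 and 1.27 CPM under Cmpd17b. The treated strains were apart, but the lowest vehicle BPN/3J mouse shared its level with the highest treated BPH/2J mouse. Ciita fell by 1.51 on the log2 scale under Cmpd17b (SE 0.355, adjusted p 0.00858, edgeR) and by 0.95 averaged over arms (SE 0.241, adjusted p 0.008, edgeR). Under vehicle its value was -0.39 (SE 0.332, adjusted p 0.507, edgeR).

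The genes of H2-DO had few counts, which limits what can be said of them. H2-Oa, its alpha chain gene, had 1 to 15 counts per library and did not pass the filter on low counts. Its group means were 0.173 ± 0.0604 CPM in vehicle BPN/3J (SD, n = 4), 0.166 ± 0.043 in treated BPN/3J (n = 5), 0.275 ± 0.198 in vehicle BPH/2J (n = 5) and 0.226 ± 0.239 CPM in treated BPH/2J mice (n = 4), with ranges that overlapped. H2-Ob, the beta chain gene, stood at 0.504, 0.293, 0.212 and 0.536 CPM in vehicle and 0.982, 1.02, 1.09, 0.813 and 1.32 CPM in treated BPN/3J mice. In BPH/2J mice H2-Ob was at 0.242, 0.674, 0.149, 0.534 and 0.389 CPM under vehicle and 0.468, 0.265, 0.35 and 1.61 CPM under Cmpd17b. Every treated BPN/3J mouse was above every vehicle BPN/3J mouse, and 1 treated BPH/2J mouse was above all others. No strain difference was called for H2-Ob, with an edgeR log2 fold change of -0.69 under Cmpd17b (SE 0.493, adjusted p 0.42) and 0.07 under vehicle (SE 0.508, adjusted p 0.95). The 95% interval under Cmpd17b, -1.72 to 0.349, holds the median of -1.38 of the 9 genes. Without treated BPH/2J replicate 5 the value under Cmpd17b was -1.52 (adjusted p 0.041, edgeR). These rest on 4 to 39 counts per library.

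The effect of Cmpd17b within each strain asks whether treatment moved the class II genes. In BPH/2J mice 8 of the 9 genes had a negative log2 fold change, with a median of -0.79 (all genes -0.01). Of these 9, edgeR called 0, against 0.164% of all genes in either direction (0 of 16245 without genes enriched in the library left out). At an unadjusted p under 0.05 there were 5 (H2-Ab1, H2-Eb1, H2-DMa, H2-DMb2 and Ciita), against 3.7% of all genes. The log2 values were -1.48 for H2-DMb2 (SE 0.527), -0.95 for H2-Ab1 (SE 0.365), -0.88 for Ciita (SE 0.353), -0.86 for H2-DMa (SE 0.283) and -0.79 for H2-Eb1 (SE 0.332), each with an adjusted p of 1 in edgeR. Cd74 was at -0.65 (SE 0.337, 95% interval -1.36 to 0.05) and H2-Ob at 0.69 (SE 0.508). None of the 9 class II genes had treated and vehicle BPH/2J mice apart. The share of all genes apart in this comparison was not counted. Without BPH/2J vehicle replicate 2 the median was -0.33, the H2-Aa effect -0.10 rather than -0.66 and the H2-DMb2 effect -0.69 rather than -1.48, again with 0 genes called. Cell markers moved in the same comparison, with 0 called in each of these lists: the median was -0.38 for pan-leukocyte, -0.61 for macrophage, -0.51 for dendritic cell and -3.99 for fat cell markers. Fat cell markers summed to 0.268 to 2.04 CPM in treated and 1.12 to 60 CPM in vehicle BPH/2J mice. Their part in the class II values was not tested. With the leukocyte covariate the class II median in BPH/2J was -0.38.

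In BPN/3J mice all 9 log2 fold changes were above 0, with a median of 0.33 (all genes 0.00), and edgeR called 0 of them, as it called 0% of all genes. H2-Ob gave the largest at 1.44 (SE 0.5, 95% interval 0.389 to 2.49), with an unadjusted p of 0.00995 and an adjusted p of 1 in edgeR. It was the only one of the 9 with an unadjusted p under 0.05, against 2.53% of all genes, and the only one with treated mice all above vehicle mice, against 1.03% of all genes. The other 8 genes lay between 0.09 for H2-DMa and 0.44 for H2-DMb1. Without treated BPN/3J replicate 5, H2-Ab1 was at -0.08, H2-DMa at -0.10 and H2-DMb1 at -0.01. The 2 effects of Cmpd17b differed in edgeR's interaction term by -1.87 for H2-DMb2 (SE 0.707, 95% interval -3.35 to -0.383) to -0.75 for H2-Ob (SE 0.71), with a median of -1.09 (all genes 0.00). The interaction was called for 0 of the 9 genes, against 0.0304% of all genes, and each adjusted p was 1 in edgeR. Without the genes enriched in the library left out, edgeR called the interaction for 0 of 16245 genes. Without BPH/2J vehicle replicate 2 the median interaction was -0.65, with a range of -1.08 to -0.47. In the fit of all 18 libraries, 6 of the 9 genes had an unadjusted p under 0.05 for the interaction, against 3.22% of all genes. In the same fit, with 0 called in each list, the median effect in BPN/3J was 0.40 for pan-leukocyte, 0.32 for macrophage and 0.13 for dendritic cell markers. The median interaction was -0.78, -0.98 and -0.58 for these lists and -5.92 for fat cell markers. With the leukocyte covariate, 8 of the 9 class II effects in BPN/3J were below 0 (median -0.34; H2-Aa -0.22, H2-Ab1 -0.51, H2-DMb2 -0.50). The interaction then had a median of 0.00 and a range of -0.45 to 0.36, with 5 of 9 genes below 0. No class II gene was called in either case. DESeq2 and limma-voom also called 0 class II genes for treatment in either strain and for the interaction.

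**Figure D3:**
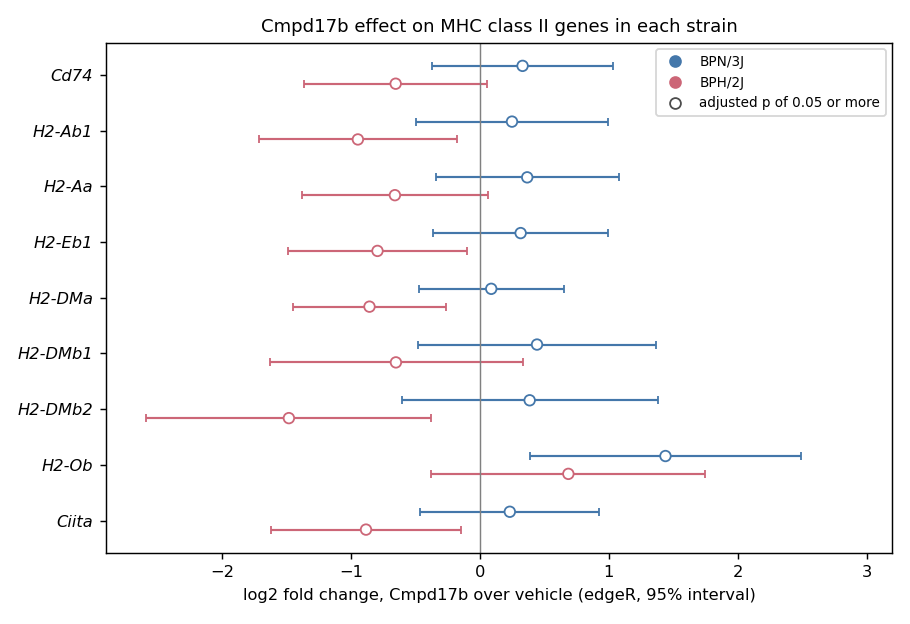
Cmpd17b effect on the 9 tested class II genes (x axis, log2 fold change of Cmpd17b over vehicle with its 95% interval) in BPN/3J and BPH/2J mice. All points are open, since no gene had an adjusted p under 0.05; values in BPH/2J run from -1.48 to 0.69 and in BPN/3J from 0.09 to 1.44.

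Ratios between genes of 1 library do not depend on how libraries are scaled, and 5 were tested between strains by a two-sided exact permutation of strain labels within each arm (15876 arrangements, adjusted over the 5). H2-Ab1 was low in BPH/2J mice relative to its partners. Cd74 counts per H2-Ab1 count were 1.43, 1.61, 1.43 and 1.5 in vehicle and 1.71, 1.85, 1.77, 1.47 and 1.36 in treated BPN/3J mice. They were 2.76, 2.6, 2.56, 2.29 and 1.93 in vehicle and 3.04, 2.88, 2.59 and 3.2 in treated BPH/2J mice. All 9 BPH/2J mice were above all 9 BPN/3J mice, a 1.71-fold difference (log2 0.77, exact permutation p 6.3e-05, the smallest this design can give; adjusted p 0.000315). It was 0.69 under vehicle and 0.85 under Cmpd17b on the log2 scale.

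Relative to H2-Ab1, H2-Aa was 1.52-fold higher in BPH/2J mice (log2 0.61, exact permutation p 0.00315, adjusted p 0.00787), with 7 of 9 mice above all BPN/3J mice. H2-Eb1 was 1.37-fold higher (log2 0.45, exact permutation p 0.00705, adjusted p 0.0118), with 6 of 9 above. The ratio of H2-DMb1 to H2-DMb2 did not pass the test, at a log2 difference of 0.29 (exact permutation p 0.087, adjusted p 0.109), nor did H2-DMa to H2-DMb1, at 0.17 (exact permutation p 0.428, adjusted p 0.428). The 2 strains may carry different class II alleles, and whether reads of both align equally well to the reference genome was not tested.

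Plotted per 100 Cd74 counts, 3 BPH/2J mice stood apart, which was noticed after the values had been seen. Vehicle replicates 3 and 5 and Cmpd17b replicate 5 had 27.6, 27.2 and 26.8 H2-Aa counts per 100 Cd74 counts, whereas the other 6 BPH/2J mice had 38.7 to 46.5 and BPN/3J mice 35.5 to 45.6. For H2-Ea they had 24.7, 25.6 and 12.9, against 33.7 to 47.8 in the other BPH/2J and 36 to 49.5 in BPN/3J mice. H2-Eb1 was at 22.1, 29.3 and 19.2, against 30.6 to 38.2 and 34.8 to 41. H2-Ab1 in the same 3 mice was at 39, 51.7 and 31.2, and the other BPH/2J mice had 32.9 to 43.6. The vehicle pair thus lay within or above that range, while Cmpd17b replicate 5 was below it, with the lowest value of all 18 mice. BPN/3J mice had 54.1 to 73.7 H2-Ab1 counts per 100 of Cd74. These 3 mice were picked by their class II values, so a fit without them is no separate test. Without them, edgeR called all 9 class II genes lower in treated BPH/2J mice, against 868 of all 16542 genes. It called 6 lower averaged over arms, against 1803, and 0 under vehicle, against 1081. The class II median under vehicle was then -0.03, with 6 of the 9 genes below 0.

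**Figure D4:**
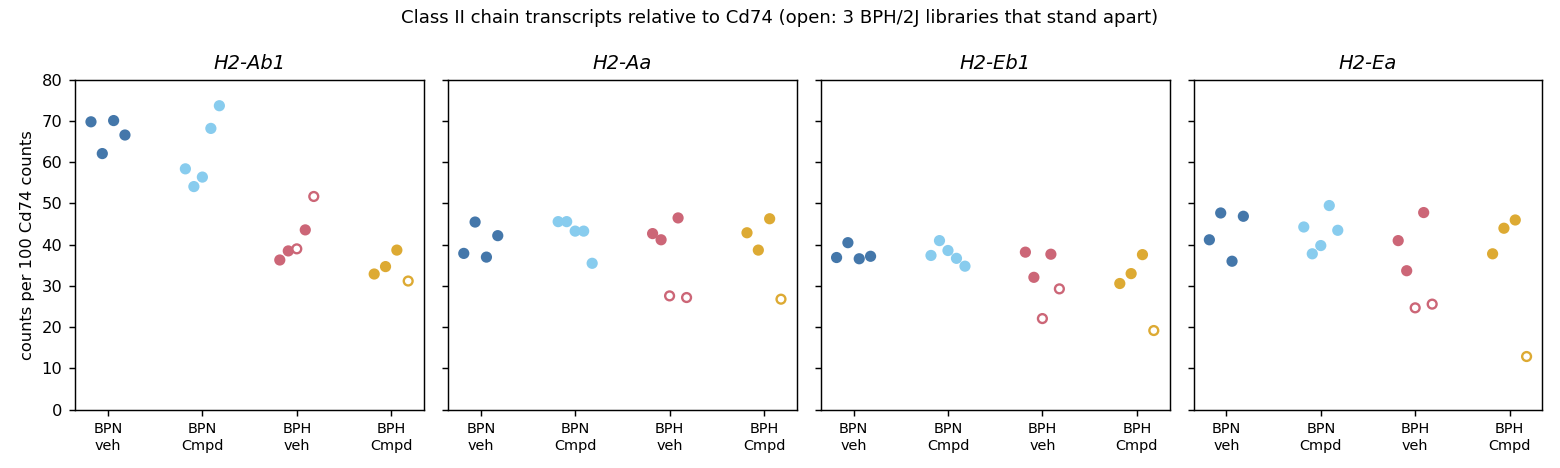
Counts of 4 chain genes per 100 Cd74 counts (y axis) in each mouse of the 4 groups (BPN, BPN/3J; BPH, BPH/2J; veh, vehicle; Cmpd, Cmpd17b); open circles are the 3 BPH/2J mice named in the text. H2-Ab1 lies at 54.1 to 73.7 in BPN/3J mice and below that in every BPH/2J mouse, and the open circles are the lowest BPH/2J points for H2-Aa, H2-Eb1 and H2-Ea, whereas for H2-Ab1 only that of Cmpd17b replicate 5, at 31.2, is the lowest.

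The class II genes varied together from mouse to mouse. Among the 8 tested genes other than H2-Ob, the 28 pairwise correlations of log2 CPM over 18 libraries were 0.748 to 0.976 (Pearson's r, median 0.906), and 0.52 to 0.968 (median 0.835) after group means were subtracted. The 8 pairs with H2-Ob had 0.279 to 0.577 (median 0.478). These describe 18 libraries that share strain and treatment groups. The genes outside the 10 whose levels followed the class II mean most closely were C1qb (r 0.908), Mpeg1 (0.905), H2-Ea (0.878), Ccl6 (0.866), Dock11 (0.865), Tgtp1 (0.862), Art4 (0.853) and Pld4 (0.851). C1qb encodes a complement chain and Mpeg1 a pore-forming protein, both made by macrophages. With group means subtracted the closest were C1qb (0.9), Ccr2 (0.875), Arpc1b (0.874), C1qa (0.872), Cd44 (0.868), Sting1 (0.863), Fcer1g (0.861) and Mpeg1 (0.854).

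Markers of antigen-presenting cells were read beside the class II genes. Averaged over arms, where 10.4% of all genes were called lower, 4 of 11 tested dendritic cell markers fell in BPH/2J mice: Clec9a (-2.05, adjusted p 0.000999), Cd209a (-2.60, adjusted p 0.00114), Batf3 (-1.68, adjusted p 0.00647) and Kmo (-0.32, adjusted p 0.01), by edgeR log2 fold change. Clec9a, Cd209a and Batf3 were near the floor, with group means of at most 1.12 CPM. Each had its lowest treated BPH/2J mouse at 0 CPM. Kmo, an enzyme of tryptophan breakdown, is also expressed by kidney tubules. The median of the 11 was -1.05. Of 6 tested B cell markers 3 fell, among them Pax5 (-1.81, adjusted p 0.00554) and Cd79a (-1.02, adjusted p 0.0401) in edgeR, with a list median of -1.15. Pax5 and Cd79a were low too, with group means of at most 0.38 and 1.09 CPM. Of 11 macrophage markers 1 fell, Mertk (-0.91, adjusted p 1.62e-06, edgeR), a receptor through which macrophages take up dying cells, with a list median of -0.08. None of 9 pan-leukocyte markers was called (median -0.23). Of 6 T cell markers Cd3e fell (-1.59, adjusted p 0.0122, edgeR) and Cd8a rose (1.27, adjusted p 0.00545, edgeR), where 13.2% of all genes were called higher. Group means were at most 0.478 CPM for Cd3e and 1.25 CPM for Cd8a.

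Under Cmpd17b, where 4.65% of all genes were called lower, the median strain difference was -1.05 for dendritic cell markers (3 of 11 fell), -1.26 for B cell markers (1 of 6 fell), -1.80 for T cell markers (2 of 6 fell), -0.61 for macrophage markers (1 of 11 fell) and -0.61 for pan-leukocyte markers (0 of 9 fell). Medians for lists of other tissue were -4.77 for fat cell (0 of 6 called), 0.49 for podocyte (1 of 5 rose) and 5.49 for heart muscle markers (11 of 12 rose). Of all 16421 genes 937 were called higher. The summed level of the 9 pan-leukocyte markers was 16.6 to 35.8 CPM in treated BPH/2J mice (median 25.6), 17.9 to 48.8 in vehicle BPH/2J (26.8), 31.7 to 52.7 in treated BPN/3J (34.5) and 22.5 to 34.9 CPM in vehicle BPN/3J mice (26.5). The 12 macrophage markers summed to 78.6 to 91 CPM in treated BPH/2J, 81.2 to 135 in vehicle BPH/2J, 103 to 131 in treated BPN/3J and 104 to 127 CPM in vehicle BPN/3J mice. Much of this sum was Mertk, the 1 called macrophage marker, with means of 24.8, 23.9, 43.6 and 47.8 CPM in the same order. None of these listed markers was at 0 in every library. The 10 class II genes summed to 76.8 to 158 CPM in treated BPH/2J (median 127), 104 to 419 in vehicle BPH/2J (164), 223 to 472 in treated BPN/3J (280) and 237 to 246 CPM in vehicle BPN/3J mice (240). Per CPM of leukocyte markers, the class II sum was 4.43 to 5.41 in treated BPH/2J, 4.4 to 8.58 in vehicle BPH/2J, 6.63 to 8.97 in treated BPN/3J and 7.04 to 10.5 in vehicle BPN/3J mice, and the treated strains did not overlap. Per CPM of macrophage markers it was 0.978 to 1.75 in treated BPH/2J, 1.28 to 3.1 in vehicle BPH/2J, 1.71 to 4 in treated BPN/3J and 1.87 to 2.37 in vehicle BPN/3J mice, and here the treated strains overlapped.

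The strain difference was also fitted in edgeR with the mean log2 leukocyte marker level as a covariate. Under Cmpd17b the calls went from 7 to 2 (H2-Ab1 and H2-DMa) and the median from -1.38 to -0.70. H2-Ab1 went from -1.90 to -1.06, H2-Aa from -1.16 to -0.47, H2-DMb1 from -1.54 to -0.54 and Cd74 from -1.0 to -0.25. Under vehicle the calls went from 0 to 2 (also H2-Ab1 and H2-DMa) and the median from -0.27 to -0.62. Averaged over arms 8 of the 9 genes were called. Of all 16421 genes, this fit called 626 lower under Cmpd17b, 779 under vehicle and 1882 averaged over arms. Without the covariate these were 764, 811 and 1706. The part of cell content in the strain difference was not tested beyond these values.

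**Figure D5:**
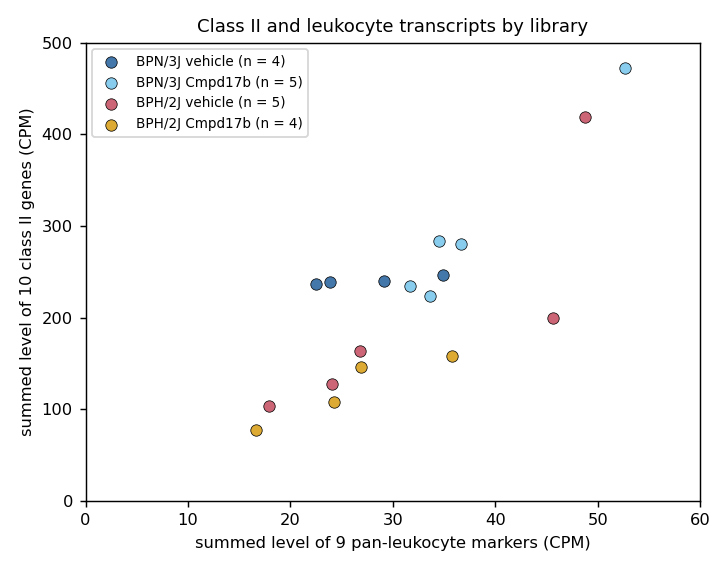
Summed level of the 10 class II genes (y axis, CPM) against the summed level of 9 pan-leukocyte markers (x axis, CPM), 1 point per mouse, coloured by group. The vehicle BPH/2J mouse at 419 CPM and the treated BPN/3J mouse at 472 CPM of class II RNA also have the highest leukocyte sums, 48.8 and 52.7 CPM.

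Other genes of the antigen presentation pathway are given averaged over arms, where 10.4% of all genes were called lower and 13.2% higher. No list of these genes had more than 2 called in a direction, too few to set apart from those shares. Among them 1 of 10 class II regulators fell: Irf8, a factor of dendritic and other myeloid cells (-0.53, adjusted p 0.00316, edgeR). The median of these 10, among them the X and Y box factors Rfx5, Rfxank, Rfxap, Nfya, Nfyb and Nfyc, was -0.06. None of 7 tested genes of the interferon gamma pathway, which induces Ciita, was called (median -0.11). Of 11 lysosomal processing genes Ctsl (-0.45, adjusted p 0.00305) and Marchf1 (-0.46, adjusted p 0.00921), a ligase that sends class II molecules for degradation, fell and Ctsz rose (0.57, adjusted p 0.0109) in edgeR. Of 8 costimulators and T cell partners only Cd83 was called, and it rose (0.76, adjusted p 0.0141, edgeR). Of 12 class I genes H2-T23 fell (-0.45, adjusted p 0.0143, edgeR), with a list median of -0.19 averaged over arms and -0.39 under Cmpd17b.

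In RefSeq's gene order on chromosome 17, 16 genes lie from H2-Oa to H2-Ea and 8 of them are class II genes described here. The 5 other tested genes in this stretch besides H2-Ea are Brd2, Psmb9, Tap1, Psmb8 and Tap2, and edgeR called 0 of them between strains in either arm. Of all 16421 genes it called 1766 under vehicle and 1701 under Cmpd17b, so 0 of 5 cannot be set apart from those shares. The median log2 fold change of the 5 was 0.25 under vehicle and -0.45 under Cmpd17b. Only Brd2 of the 5 was called averaged over arms (-0.26, adjusted p 0.0373, edgeR), where 10.4% of all genes were called lower. Psmb8, Psmb9, Tap1 and Tap2 serve class I peptide supply and sit between H2-DMb1 and H2-Ob.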

How the data were processed

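Polyadenylated RNA of mouse kidneys was sequenced, 19 libraries with 1 batch label (2), of which 18 were used. The authors deposited 1 table of estimated counts (expected counts) per gene: 4.63% to 10.1% of the values of a library were not whole. The submitters' processing notes name Trim Galore 0.6.7, STAR 2.7.9a and the build GRCm39; what made the counts is not given in the sources used here. Rounded counts were tested in edgeR 4.0.16 (R 4.3.3; quasi-likelihood, robust, TMM, filterByExpr with a minimum count of 10 and a total of 15), with the 4 groups in 1 fit, over 16421 genes. Calls were made below an adjusted p of 0.05. The fit was checked on simulated data. Ratios had 0.5 added to each count. Correlations used log2 CPM with a prior count of 2. Lengths came from GENCODE M21 and promoters from RefSeq GRCm38.p6.

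The members, lists and tests were chosen with earlier results of these data known. All 10 class II genes are named. From each list at most the 4 called genes with the smallest p are named, plus tissue checks, and the 8 closest genes whose mean log2 CPM was not below 0. Rfx5, Rfxank, Rfxap, Nfya, Nfyb, Nfyc and the neighbouring genes are named as what they are, not for their values. The values of 1 called gene are not reported here. The symbols Ighm, Ighd, Trac and Trbc2 were not matched. Alternatives were DESeq2 1.42.0, limma-voom (limma 3.58.1), DESeq2 size factors, no filter, a floor of 1 CPM in 4 libraries, fits of the compared groups alone, a non-robust fit, all 19 libraries, a leukocyte covariate and leaving out each library. A macrophage covariate, summed H2-DMb copies, leaving out genes enriched in the library left out, and leaving out 3 libraries that stood apart were added after seeing the data. The labels number each animal, but do not say how animals were housed or litters shared, so p-values measure the spread between these mice.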

Additional observations from a re-analysis of the deposited data

Results flagged for a closer look

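In each of the 40 sets of 1 gene in 1 group, the highest and the lowest mouse were compared with the rest of the set, and 8 sets held a mouse far from the others. Chance gives about 1 in 20. BPH/2J vehicle replicate 2 was high for H2-Aa (76.8 CPM, next 31.4), H2-Eb1 (59.9 CPM, next 26.2) and H2-DMb2 (4.72 CPM, next 1.64). This mouse also had the highest leukocyte marker sum of its group, 48.8 CPM. BPN/3J Cmpd17b replicate 5 was high for H2-Ab1 (133 CPM, next 62.4), Cd74 (181 CPM, next 111) and H2-DMb1 (8.96 CPM, next 3.32), and it too had the highest leukocyte sum of its group, 52.7 CPM. BPH/2J Cmpd17b replicate 5 was high for H2-Ob (1.61 CPM, next 0.468). BPN/3J vehicle replicate 2 was low for H2-Ab1 (55.6 CPM, next 62.8), in the group with the tightest values.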

How the results depend on the processing

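No class II gene that was called reversed its direction under any alternative run. Of 1650 recomputed fold changes, 1561 kept both direction and side of the threshold, 33 that were called in neither fit changed sign, 37 lost and 19 gained a call. With the leukocyte covariate, edgeR called 2 genes lower under vehicle and 2 under Cmpd17b (H2-Ab1 and H2-DMa in both), against 779 and 626 of all 16421 genes. With the macrophage covariate it called 3 under Cmpd17b (H2-Ab1, H2-Eb1 and H2-DMa), against 478 of all genes. The covariates are measured in the same libraries, and the cause of these changes was not tested. Leaving out each library in turn gave 0 to 1 calls under vehicle (H2-Ab1 without BPH/2J vehicle replicate 2), 5 to 8 under Cmpd17b, 5 to 8 averaged over arms and 0 for treatment and interaction. Of 16301 to 16784 genes tested, these fits called 576 to 1146 lower under vehicle, 583 to 792 under Cmpd17b and 1434 to 2001 averaged over arms. H2-Ab1, H2-Eb1, H2-DMa, H2-DMb2 and Ciita were called under Cmpd17b in all 18 of these fits, H2-Aa in 12 and H2-DMb1 in 8. The strain difference in the ratio of H2-DMb1 to H2-DMb2 was 0.222 to 0.357 (log2), and 0.357 passed the exact permutation test without BPH/2J vehicle replicate 2 (adjusted p 0.0208). Under Cmpd17b DESeq2 called 8 class II genes, against 1006 of 20757 genes called lower. There limma-voom called 6, against 762 of 16421, and edgeR without a filter 5, against 671 of 29359. No paired analysis was possible because the groups share no animal and their replicate numbers are in order of accession. Counts of H2-Oa (1 to 15) and H2-Ob (4 to 39) limit what can be seen for them.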
